A study of Homo sapiens with 24 samples.

Results

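The replication-dependent histone genes encode the linker histone H1 and the core histones H2A, H2B, H3 and H4 that package newly made DNA. They were chosen by symbol (H1-1 to H1-6 and the numbered H2AC, H2BC, H3C and H4C genes), and a gene counted as a member when its value was above 0 in any library. Of 61251 genes in the table, 66 had such a symbol and 63 were members: 6 H1, 14 H2A, 16 H2B, 13 H3 and 14 H4 genes. H2AC1, H2BC1 and H2AC15 were listed at 0 in all 24 libraries.

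RNA was sequenced from KYSE450 cells, which were established from a human squamous cell carcinoma of the oesophagus, in 4 groups of 6 libraries. The groups were chemoresistant DTP cells (titled KYSE450DDP-DTP), chemoresistant cells (KYSE450DDP), parental DTP cells (KYSE450-DTP) and parental cells (KYSE450), where DTP is this field's short form for drug tolerant persister, a reversible state in which tumour cells outlast a drug. All 4 groups carry the genotype label WT, were cultured in RPMI-1640 containing 10% FBS and are labelled as not treated. Neither a drug nor its dose is named, DDP is left without an explanation, and it is not said whether the chemoresistant line is 1 clone. Nor is it said whether the 6 libraries of a group are separate cultures, so a p-value here measures spread between these samples that may be technical alone.

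Most replication-dependent histone mRNAs are made in S phase, when DNA is copied. They lack introns and a poly(A) tail and end instead in a conserved stem-loop, which the stem-loop binding protein SLBP holds during 3′ end processing, translation and decay. Some of these genes are also known to give a longer, polyadenylated transcript that runs past the stem-loop, mostly in cells that have left the cell cycle or are differentiating. Counts of such mRNAs therefore depend on whether a library keeps RNA without a poly(A) tail, which no source used here states.

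The stem-loop is shown because it is the feature that sets these mRNAs apart. The GENCODE 29 transcripts (GRCh38) annotate a 3′ UTR for 32 of the 63 members, and 28 of them held a stem-loop after the stop codon. The pattern searched was GGNNNNTNTNNNNNCC, on the transcript strand alone, with all 6 stem positions paired and G-T pairs allowed. It was found after the stop codon of 284 of 19922 protein-coding genes (1.43%). The 6 forms are printed 5′ to 3′ with the 4-base loop in capitals, and base differences are counted from 1 at the 5′ end of the first.
commonest form, 15 members including H2AC6, H2BC8, H2BC21 and H3C10: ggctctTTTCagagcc
H4C2, H4C5, H4C8 and H4C11: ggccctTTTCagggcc
H2BC4, H2BC5, H2BC7 and H3C8: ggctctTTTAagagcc
H4C9, H4C14 and H4C15: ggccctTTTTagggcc
H3C6: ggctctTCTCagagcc
H2AC11: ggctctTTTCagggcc
The form of H2BC4, H2BC5, H2BC7 and H3C8 differed from the commonest by C10A in the loop, that of H3C6 by T8C in the loop and that of H2AC11 by A13G in the stem. The 2 forms in which both bases of a stem pair are changed were found in H4 genes. In 20 members an annotated transcript ran at least 100 bases past the stem-loop. H2BC12 and H1-2, which were among the members with the highest levels, have no annotated 3′ UTR, so no stem-loop could be read for them.

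Of the 61 members with an entry in GENCODE 29, 50 lie on chromosome 6 and 11 on chromosome 1. The 3 members with the highest mean level over all libraries were H2BC12 (ENSG00000197903, chromosome 6, 27146418 to 27146798), H2AC6 (ENSG00000180573, chromosome 6, 26124145 to 26139116) and H1-2 (ENSG00000187837, chromosome 6, 26055787 to 26056428). Their promoters are shown because their mean levels were the highest. The 250 bases before each RefSeq start site are printed 5′ to 3′ on the strand of the gene (RefSeq, GRCh38.p14), with TATAAA (the TATA box), the CCAAT box and the octamer ATTTGCAT in capitals where they occur on either strand.
H2BC12, chr6:27146859-27147108, minus strand: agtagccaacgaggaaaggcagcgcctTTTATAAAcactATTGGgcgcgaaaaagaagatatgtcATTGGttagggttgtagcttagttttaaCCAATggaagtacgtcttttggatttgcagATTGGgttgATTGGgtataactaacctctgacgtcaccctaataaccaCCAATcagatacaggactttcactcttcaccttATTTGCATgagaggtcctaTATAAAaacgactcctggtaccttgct
H2AC6, chr6:26123922-26124171, plus strand: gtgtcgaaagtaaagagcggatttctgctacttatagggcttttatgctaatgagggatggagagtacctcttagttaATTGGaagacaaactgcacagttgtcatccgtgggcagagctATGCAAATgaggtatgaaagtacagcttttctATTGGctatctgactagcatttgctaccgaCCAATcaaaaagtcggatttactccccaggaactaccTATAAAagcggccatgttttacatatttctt
H1-2, chr6:26056471-26056720, minus strand: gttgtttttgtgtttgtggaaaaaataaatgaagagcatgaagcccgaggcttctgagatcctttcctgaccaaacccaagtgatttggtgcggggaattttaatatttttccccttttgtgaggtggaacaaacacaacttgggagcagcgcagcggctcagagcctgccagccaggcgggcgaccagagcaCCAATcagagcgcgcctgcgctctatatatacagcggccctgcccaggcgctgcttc
TATAAA stood in 67.2% of the 58 members with a promoter in the RefSeq table, against 11.1% of all 27305 promoters of the same length. CCAAT stood in 84.5% of the members against 33.0% of all promoters, and in 25.0% of the H4 members. ATTTGCAT, the octamer that POU2F1 binds, stood in 41.4% of the members against 1.7% of all promoters. It was in 81.2% of the H2B and 76.9% of the H2A members, in 1 of 11 H3 members, and in 0 of 6 H1 and 0 of 12 H4 members. Both strands were searched, and matches may share bases, as do TATAAA and its reverse complement in the promoter of H2BC12. A match describes the letters in this window and is not a measured binding site.

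Whole reads recovered from the FPKM steps gave library totals from 14947379 to 37989445 reads, of which members made up 1086 to 5513 reads per library. All levels are FPKM, which divides by the length of the gene model and the library total. Member models run from 386 to 5422 bases, and the length of the RNA present was not measured. Levels and shares compared between members therefore depend on these models. Between 52 and 59 of the 63 members were above 0 in a single library. The squamous label held, with summed FPKM of 8 squamous epithelial markers between 2688 and 6398 in all libraries. Markers of fibroblasts summed to at most 19.2 FPKM, those of leukocytes to at most 2.63, of endothelium to at most 1.14 and of erythroid cells to at most 1.34, with CD3E listed at 0 throughout. The fibroblast sum, led by COL1A1, had medians of 7.34 FPKM in chemoresistant DTP, 9.60 in chemoresistant, 3.86 in parental DTP and 4.26 in parental cells. The leukocyte sum, led by LYZ in both chemoresistant groups, had medians of 1.58, 0.461, 0.147 and 0.0729 FPKM, the endothelial sum, led by VWF, of 0.511, 0.965, 0.176 and 0.126 FPKM, and the erythroid sum of 0.851, 0.811, 0.105 and 0.0543 FPKM in the same order of groups. These low sums were higher in both chemoresistant groups, as the histones were, and their part in the results was not tested.

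Summed histone mRNA was highest in both chemoresistant groups, lower in parental DTP cells and lowest in parental cells. The 63 members summed to 226 ± 19.1 FPKM in chemoresistant DTP cells, 227 ± 10.3 in chemoresistant cells, 124 ± 2.29 in parental DTP cells and 82.1 ± 3.94 in parental cells (SD, n = 6 each). Single libraries ran from 209.7 to 260.2 in the chemoresistant DTP group, from 212 to 239.8 in the chemoresistant group, from 122 to 127 in the parental DTP group and from 75.1 to 86.2 in the parental group. Both chemoresistant groups overlapped each other, and no library of theirs reached down to a parental DTP library, nor a parental DTP library to a parental one. Means stood 2.76-fold higher in chemoresistant than in parental cells and 1.51-fold higher in parental DTP than in parental cells. With FPKM rescaled by relative log expression the same ratios were 2.27 and 1.26, and with upper-quartile scaling 1.97 and 1.14. As CPM, read counts relative to the library total alone, members took 201 ± 11.6 in chemoresistant DTP, 203 ± 5.09 in chemoresistant, 120.4 ± 3.31 in parental DTP and 67.2 ± 3.54 in parental cells (SD, n = 6 each).

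**Figure D1:**
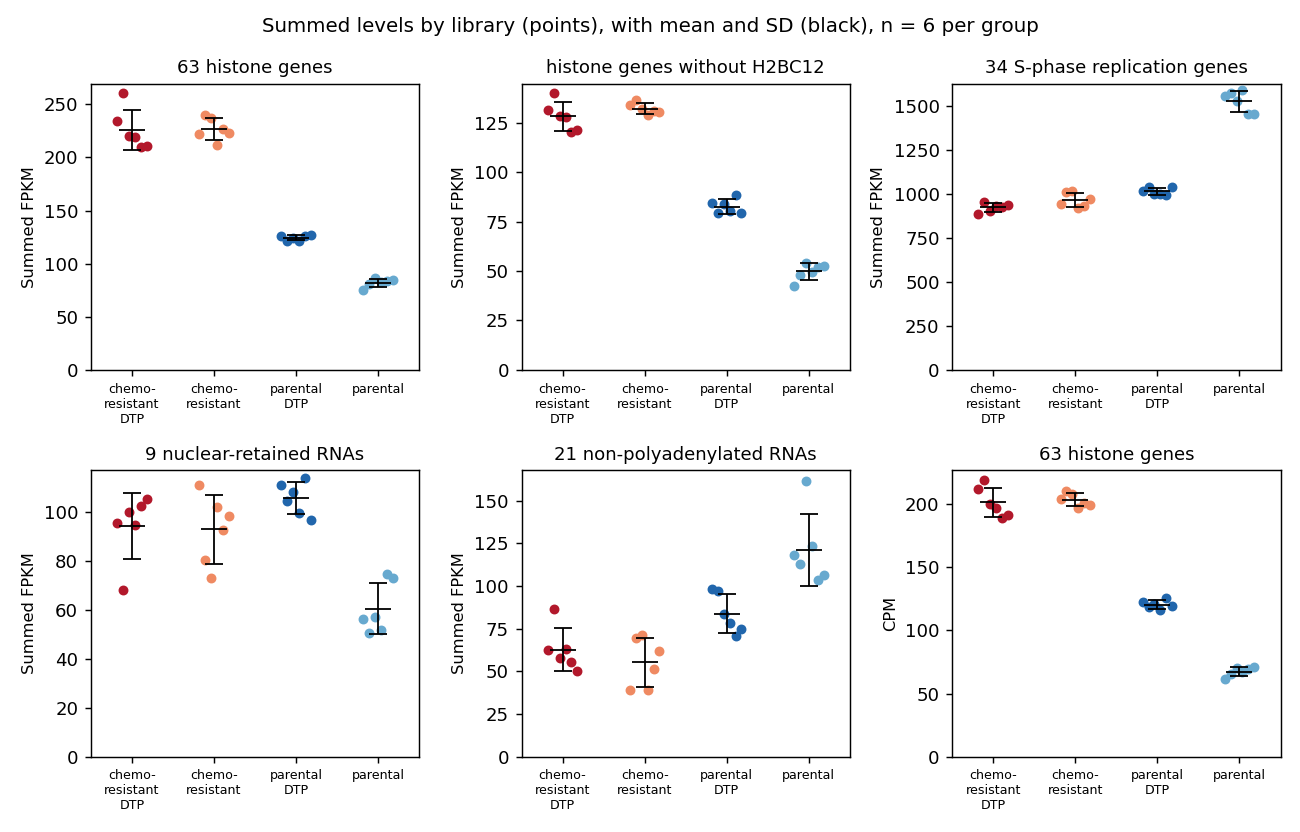
Summed FPKM of the 63 histone genes, of those without H2BC12, of 34 S-phase replication genes, of 9 nuclear-retained RNAs and of 21 non-polyadenylated RNAs, and CPM of the histone genes, for each of the 24 libraries (points) with the mean and SD of each group (black, n = 6). Histone mRNA is lowest in parental cells (mean 82.1 FPKM), where the S-phase genes are highest (mean 1525 FPKM).

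The classes followed the same order to different degrees. H1 members summed to 19.5 ± 1.40 FPKM in chemoresistant DTP, 16.5 ± 2.37 in chemoresistant, 7.49 ± 1.16 in parental DTP and 3.78 ± 1.27 in parental cells (SD, n = 6 each), the widest ratio between chemoresistant and parental cells among the 5 classes (4.36-fold). H2A members summed to 39.6 ± 2.61, 42.8 ± 1.80, 26.5 ± 1.79 and 15.9 ± 2.12 FPKM in chemoresistant DTP, chemoresistant, parental DTP and parental cells. H2B members held most of the total, with 143 ± 13.7 FPKM in chemoresistant DTP, 143 ± 9.94 in chemoresistant, 72.3 ± 3.12 in parental DTP and 50.03 ± 1.01 in parental cells. H3 members summed to 11.8 ± 1.74 FPKM in chemoresistant DTP, 12.9 ± 0.879 in chemoresistant, 9.56 ± 0.497 in parental DTP and 6.78 ± 0.539 in parental cells. H4 members summed to 12.2 ± 1.21 FPKM in chemoresistant DTP, 11.9 ± 0.483 in chemoresistant, 8.42 ± 0.833 in parental DTP and 5.63 ± 0.565 in parental cells.

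H2BC12, a core histone H2B gene, alone made up 43.1 ± 1.76% of the summed member FPKM in chemoresistant DTP, 41.7 ± 1.97% in chemoresistant, 33.6 ± 2.49% in parental DTP and 39.4 ± 2.28% in parental cells. The total without it stood in the same order, at 128 ± 7.15, 132 ± 2.81, 82.6 ± 3.58 and 49.8 ± 4.18 FPKM. Of the 50-base windows in the transcript of H2BC12, 74.1% also occur in other genes, chiefly the near-identical H2B copy H2BS1. That copy had a median of at most 0.231 FPKM in any group, and how reads that match both were assigned is not stated. In 15 members over 50% of windows are shared in this way, among them the pairs H2AC18 and H2AC19, H3C14 and H3C15, H4C14 and H4C15, and H4C11 and H4C12, so the split of reads within such pairs is uncertain. Another 13 members, some of them the same, overlap an exon of another gene, which matters where strand was not used.

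Of the 63 members, 27 averaged 1 FPKM or more in some group and entered the tests with all other such genes: 1 H1, 7 H2A, 10 H2B, 6 H3 and 3 H4 genes. Tests were made with limma on log2(FPKM + 1) with Benjamini-Hochberg adjustment over all 13729 genes, and a gene was called at an adjusted p under 0.05. On this scale the change of genes at low levels is understated. A member that passed only through the group where it is high had to differ, so the counts below describe the members that passed and are not a result about all 63. Comparisons that share a group share its libraries: chemoresistant and parental DTP cells are both set against the same 6 parental libraries, and each DTP group also enters a second comparison.

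The comparison of chemoresistant with parental cells asked how histone mRNA differs between the resistant line and the line it is compared with. Histone genes of every class were higher in the chemoresistant cells, with H2AC6 and H1-2 showing the widest differences. Of the 27 tested members 23 rose and 0 fell (limma), where 48.2% of all tested genes rose and 29.4% fell. None of the 27 fell at an unadjusted p under 0.05 or with voom weights on recovered reads, and all 27 fold changes were positive. The median log2 fold change of these members was 0.84, against 0.14 over all tested genes. With upper-quartile scaling 18 rose and 2 fell, where 25.8% of all tested genes rose and 55.3% fell, and the median was 0.50, against -0.25 over all tested genes. The genes that fell there were H2BC13 and H2BC14, of which H2BC14 is outside the 27 and passed the filter on low values under that scaling. Without a filter on low values 33 of the 63 rose and 0 fell, against 28.6% and 11.5% of all genes above 0.

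H2AC6, an H2A gene known to give polyadenylated mRNA too, ran from 15.7 to 17.7 FPKM with a median of 16.8 in chemoresistant cells and from 2.38 to 3.33 with a median of 2.77 in parental cells. The groups lay far apart, and the log2 fold change was 2.24 ± 0.0714 (SE; limma, adjusted p = 6.15e-19). H1-2, a linker histone gene and the only H1 member that was tested, ran from 11.8 to 17.7 FPKM with a median of 14.7 in chemoresistant cells and from 1.71 to 4.48 with a median of 2.63 in parental cells. The ranges did not overlap, and H1-2 rose by 2.04 ± 0.141 on the log2 scale (SE; limma, adjusted p = 2.45e-12). H2BC12 ran from 83.3 to 106 FPKM with a median of 94.1 in chemoresistant cells and from 31.7 to 32.7 with a median of 32.3 in parental cells. Its parental libraries lay within 1.0 FPKM of each other and far below every chemoresistant one, a log2 fold change of 1.52 ± 0.0674 (SE; limma, adjusted p = 4.06e-16).

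H2BC21 (ENSG00000184678, chromosome 1, 149884459 to 149886652), an H2B gene of the smaller cluster, ran from 8.26 to 9.17 FPKM with a median of 8.65 in chemoresistant cells and from 1.73 to 2.36 with a median of 2.00 in parental cells. All chemoresistant libraries were higher, by 1.68 ± 0.058 on the log2 scale (SE; limma, adjusted p = 2.94e-18). H2BC5, another H2B gene, ran from 13.2 to 16.1 FPKM with a median of 14.6 in chemoresistant cells and from 4.04 to 5.38 with a median of 4.41 in parental cells. Its log2 fold change was 1.49 ± 0.0791 (SE; limma, adjusted p = 1.55e-14), with no overlap. H2BC4, whose gene lies next to H2AC6 in the opposite orientation, ran from 5.64 to 6.92 FPKM with a median of 6.39 in chemoresistant cells and from 1.73 to 2.01 with a median of 1.85 in parental cells, a log2 fold change of 1.35 ± 0.0654 (SE; limma, adjusted p = 2.5e-15).

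Smaller members moved the same way. H2AC11, whose annotated transcript runs on well past its stem-loop, had medians of 5.52 FPKM in chemoresistant and 1.51 in parental cells and rose by 1.33 ± 0.0445 (SE; limma, adjusted p = 1.66e-18). H4C8 had medians of 2.43 and 0.556 FPKM in chemoresistant and parental cells and rose by 1.15. H2BC8, H2BC17 and H3C10 rose by 1.05, 1.03 and 1.02, and H4C9 by 0.95. The 4 tested members that were not called were H2AC16, H3C7, H2BC13 and H3C11, with log2 fold changes of 0.26, 0.20, 0.06 and 0.04. All 4 turned negative under upper-quartile scaling, where H2BC13 fell by 0.28 (limma, adjusted p = 0.0421). In 20 of the 27 tested members all 6 chemoresistant libraries lay above all 6 parental ones, against 39.3% of all tested genes, and in 0 they lay below, against 22.6%.

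**Figure D2:**
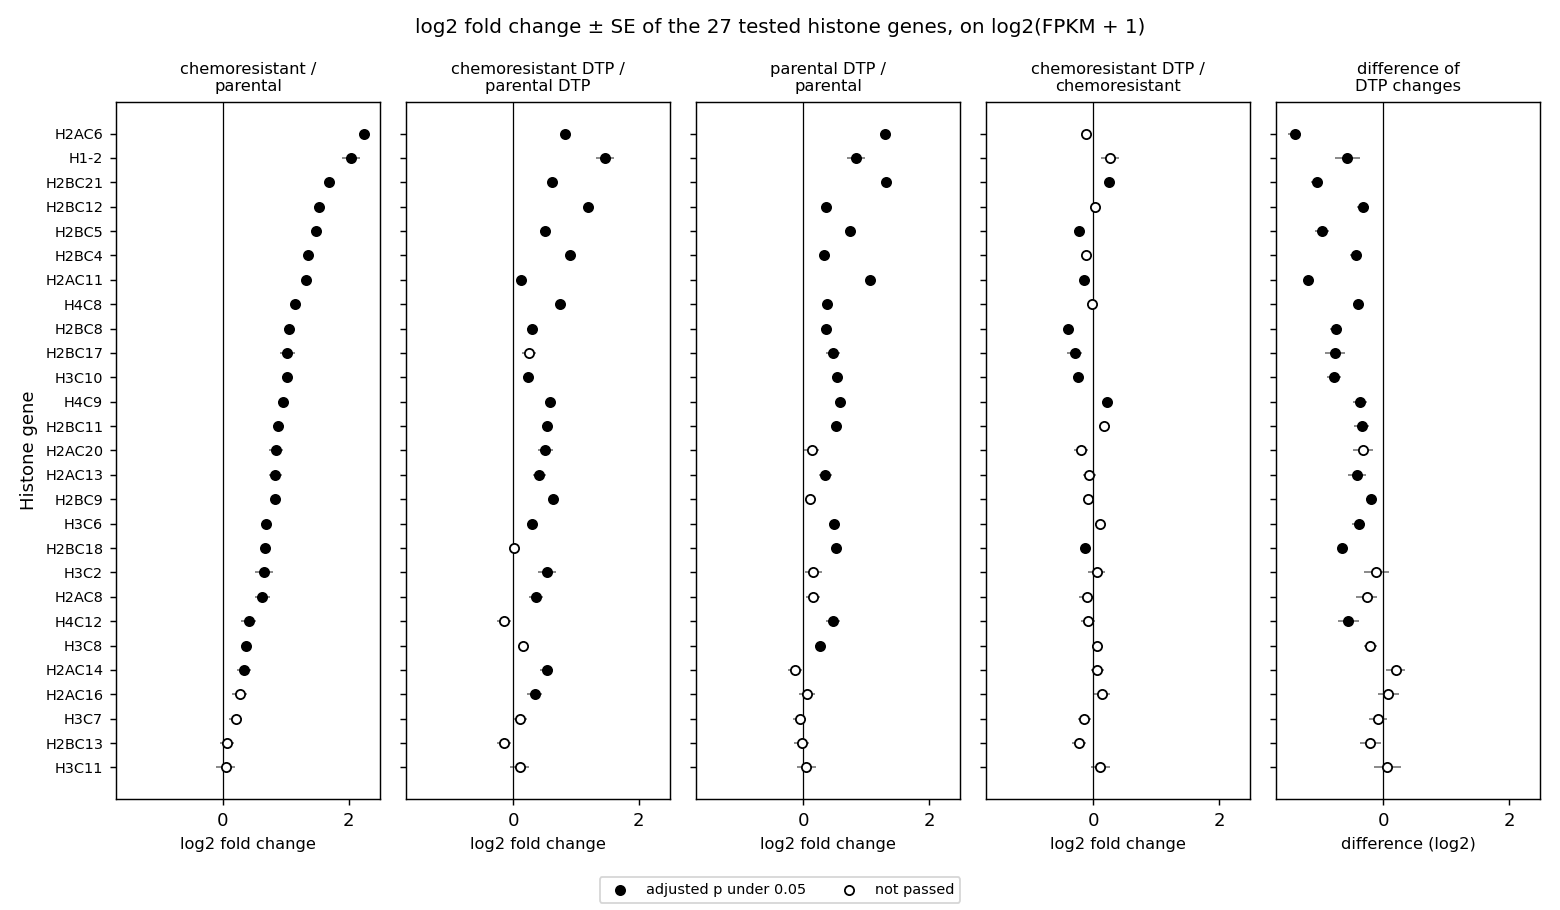
Log2 fold change (x axis) of the 27 tested histone genes in each of 4 comparisons and in the interaction (difference of DTP changes), with SE as grey bars; filled points passed an adjusted p under 0.05 in limma. All 27 genes lie right of 0 between chemoresistant and parental cells, led by H2AC6 at 2.24, whereas the changes between chemoresistant DTP and chemoresistant cells lie between -0.39 and 0.27.

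The other linker histone genes were at low levels and were not tested. H1-3 had a median of 0.561 FPKM in chemoresistant cells (0.325 to 0.949) and 0.0674 in parental cells (0 to 0.134), with no overlap. H1-4 had medians of 0.693 and 0.366 FPKM and H1-5 of 0.486 and 0.368 in chemoresistant and parental cells, with overlapping ranges. H1-1 reached at most 0.243 FPKM in any library, and H1-6, the testis-specific variant, at most 0.111. At these depths a single library with 0 reads allows up to 0.079 to 0.201 CPM (3 reads, counting error only).

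Parental DTP cells were set against parental cells to see what marks persisters of the non-resistant line. H2BC21, H2AC6 and H2AC11 were all more than 2-fold higher in the persister cells (log2 fold changes above 1), while H2BC12 differed little. Of the 27 tested members 18 rose and 0 fell (limma), where 45.8% of all tested genes rose and 19.7% fell. None of the 27 fell at an unadjusted p under 0.05 or with voom weights on recovered reads. The median log2 fold change was 0.36, against 0.14 over all tested genes. These counts moved with the scaling: 14 rose and 1 fell with relative log expression, where 27.6% of all tested genes rose and 38.2% fell. With upper-quartile scaling 12 rose and 4 fell, where 20.1% of all tested genes rose and 50.8% fell and the medians were 0.08 for the members and -0.18 for all tested genes.

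H2BC21 ran from 5.31 to 7.20 FPKM with a median of 6.62 in parental DTP cells and from 1.73 to 2.36 with a median of 2.00 in parental cells. Every persister library was higher, by 1.32 ± 0.058 on the log2 scale (SE; limma, adjusted p = 1.81e-15). H2AC6 ran from 7.23 to 10.2 FPKM with a median of 8.09 in parental DTP cells and from 2.38 to 3.33 with a median of 2.77 in parental cells, a log2 fold change of 1.30 ± 0.0714 (SE; limma, adjusted p = 1.3e-13). H2AC11 ran from 4.11 to 4.87 FPKM with a median of 4.24 in parental DTP cells and from 1.43 to 1.76 with a median of 1.51 in parental cells, a log2 fold change of 1.06 ± 0.0445 (SE; limma, adjusted p = 7.76e-16). All 3 kept their call under both other scalings. All 3 have annotated transcripts that run at least 100 bases past the stem-loop, as do 20 of the 28 members with a stem-loop. Among those 20 are H2BC4 and H2BC8, which lost their call under upper-quartile scaling.

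H1-2 ran from 4.67 to 7.40 FPKM with a median of 5.91 in parental DTP cells and from 1.71 to 4.48 with a median of 2.63 in parental cells. The lowest persister library lay just above the highest parental one, and H1-2 rose by 0.84 ± 0.141 (SE; limma, adjusted p = 1.31e-05). H2BC12 ran from 37.7 to 47.2 FPKM with a median of 41.5 in parental DTP cells and from 31.7 to 32.7 with a median of 32.3 in parental cells, a log2 fold change of 0.36 ± 0.0674 (SE; limma, adjusted p = 6.17e-05). The ranges did not overlap, yet the call rests on the scaling, with 0.10 and an adjusted p of 0.328 under relative log expression and -0.04 under upper-quartile scaling (limma). H2BC5 rose by 0.75, H4C9 by 0.59, H3C10 by 0.54, H2BC17 by 0.47, H2BC8 by 0.36 and H2BC4 by 0.33, each called in limma, and of these H2BC4 and H2BC8 were not called under upper-quartile scaling.

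Long and short gene models differed in this comparison. Members with a gene model of at least 1000 bases took 71.7 ± 3.22 CPM in parental DTP cells and 32.0 ± 1.90 in parental cells (SD, n = 6 each), a ratio of 2.24. Members with shorter models took 48.6 ± 1.16 CPM in parental DTP cells and 35.2 ± 1.75 in parental cells, a ratio of 1.38. Between chemoresistant and parental cells the same ratios were 3.39 and 2.69. Between chemoresistant DTP and parental DTP cells the order of the ratios was the other way round, at 1.49 for the long and 1.94 for the short models. H2BC12 is among the short models (495 bases), and the difference between long and short models was not tested.

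Libraries did not overlap in 17 of the 27 tested members, all higher in parental DTP cells, against 32.8% of all tested genes, and in 0 they were all lower, against 13.0%. Among the 36 members that were not tested, H1-3, H2AC19, H2BC6 and H2BC15 also showed no overlap, each at most 1.01 FPKM in every library of both groups. No share over untested genes was computed, so this is not a result about the members. H1-3 had medians of 0.263 FPKM in parental DTP and 0.0674 in parental cells. H2BC15 had medians of 0.691 and 0.321 FPKM in these groups.

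**Figure D3:**
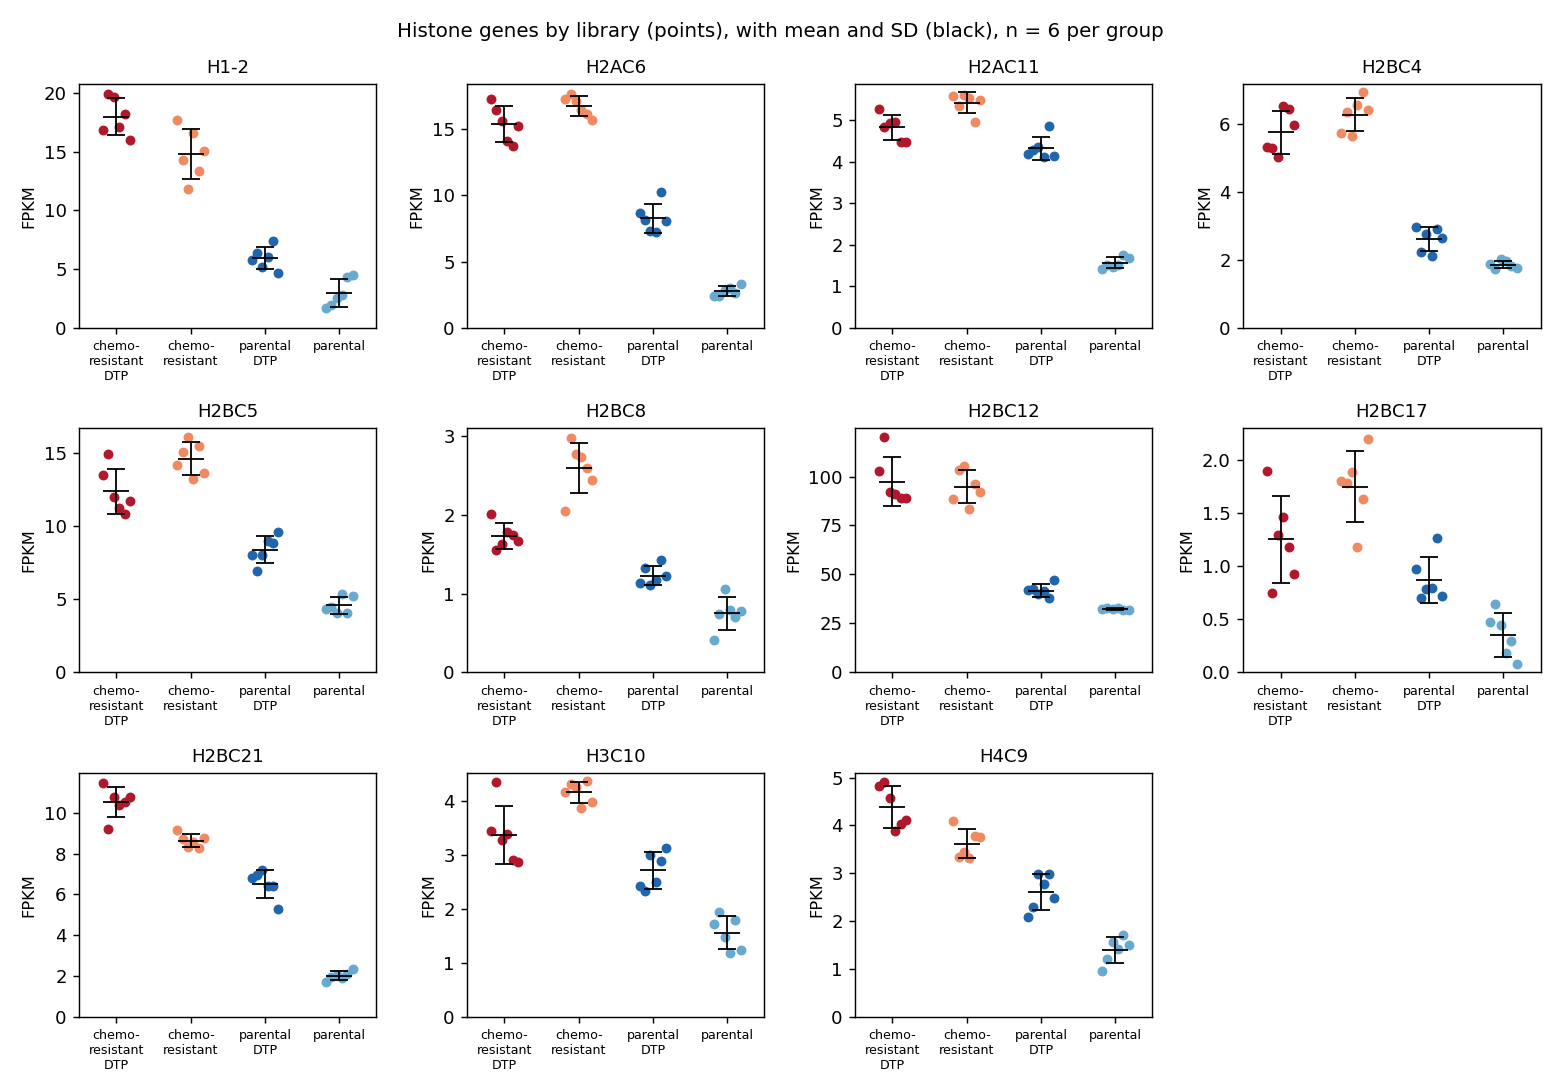
FPKM of 11 histone genes in each of the 24 libraries (points), with the mean and SD of each group (black, n = 6); each panel has its own axis from 0. H2AC6, H2BC21 and H2AC11 are well above the parental level in parental DTP cells, whereas H2BC12 is at a median of 41.5 FPKM in parental DTP and 32.3 in parental cells.

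Chemoresistant DTP cells were set against chemoresistant cells for the same question in the resistant line. Histone genes differed little here, and no tested member changed 2-fold. Of the 27 tested members 2 rose and 6 fell (limma), where 20.5% of all tested genes rose and 27.4% fell. The called members were 7.41% and 22.2% of those tested, and whether these shares differ from those of all genes was not tested. Changes of members at low levels are understated on this scale. The members that rose were H2BC21 and H4C9, and those that fell were H2BC8, H2BC17, H3C10, H2BC5, H2AC11 and H2BC18. The median log2 fold change was -0.08, against -0.02 over all tested genes. With relative log expression 4 rose and 1 fell, where 27.5% of all tested genes rose and 21.9% fell, and with upper-quartile scaling 5 rose and 1 fell, where 34.8% rose and 16.7% fell. Without chemoresistant DTP replicate 5, 3 members fell, where 26.7% of all tested genes fell.

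H2BC21 ran from 9.22 to 11.5 FPKM with a median of 10.6 in chemoresistant DTP cells and from 8.26 to 9.17 with a median of 8.65 in chemoresistant cells. The groups just failed to touch, and H2BC21 rose by 0.26 ± 0.058 (SE; limma, adjusted p = 0.000739). H2BC8 ran from 1.55 to 2.02 FPKM with a median of 1.71 in chemoresistant DTP cells and from 2.05 to 2.98 with a median of 2.67 in chemoresistant cells. Its fall, with a log2 fold change of -0.39 ± 0.0717 (SE; limma, adjusted p = 7.64e-05), was the only one that both other scalings kept. H2BC21 and H2BC8 were the only members whose libraries did not overlap, against 10.7% of all tested genes higher and 17.2% lower.

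H4C9 rose by 0.22 ± 0.0767 (SE; limma, adjusted p = 0.02). The falls of H2BC5 (-0.23), H3C10 (-0.25), H2BC17 (-0.30) and H2AC11 (-0.14) were called in limma but lost the call under both other scalings, and that of H2BC17 also when any of 7 single libraries was left out. H2BC18 (-0.14) did not pass the filter on low values under those scalings. H2BC12 had medians of 91.5 FPKM in chemoresistant DTP and 94.1 in chemoresistant cells and a log2 fold change of 0.04 ± 0.0674 (SE; limma, adjusted p = 0.694). Its chemoresistant DTP range, 89.2 to 120.3 FPKM, owed its upper end to replicate 2. H1-2 had medians of 17.7 and 14.7 FPKM and a log2 fold change of 0.27 ± 0.141 (SE; limma, adjusted p = 0.119), which passed the threshold under both other scalings (adjusted p = 0.0456 and 0.0179).

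Between the persister states of the lines, chemoresistant DTP cells had more histone mRNA than parental DTP cells. Of the 27 tested members 20 rose and 0 fell (limma), where 29.5% of all tested genes rose and 32.3% fell. None fell at an unadjusted p under 0.05 or with voom weights. Some members fell without a filter on low values, as given below, where 14.5% of all genes above 0 fell. Without parental DTP replicate 5 a 28th member, H2BC14, passed the filter and fell (-0.49; limma, adjusted p = 0.00933), and it also fell under upper-quartile scaling (-0.38; limma, adjusted p = 0.0472). The median log2 fold change was 0.42, against -0.02 over all tested genes, and it was 0.49 and 0.45 under the other scalings. Libraries did not overlap in 13 tested members, all higher in chemoresistant DTP cells, against 16.5% of all tested genes, and in 0 they were all lower, against 19.8%.

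H1-2 showed the widest difference, from 16.02 to 19.9 FPKM with a median of 17.7 in chemoresistant DTP cells and from 4.67 to 7.40 with a median of 5.91 in parental DTP cells. All chemoresistant DTP libraries were above all parental DTP ones, by 1.46 ± 0.141 on the log2 scale (SE; limma, adjusted p = 2.77e-09). H2BC12 ran from 89.2 to 120.3 FPKM with a median of 91.5 in chemoresistant DTP cells and from 37.7 to 47.2 with a median of 41.5 in parental DTP cells, a log2 fold change of 1.20 ± 0.0674 (SE; limma, adjusted p = 1.23e-13). H2BC4 rose by 0.91, H2AC6 by 0.83, H4C8 by 0.74, H2BC9 by 0.64, H2BC21 by 0.62 and H4C9 by 0.59, each without overlap. H2AC11, by contrast, ran from 4.49 to 5.26 FPKM in chemoresistant DTP and from 4.11 to 4.87 in parental DTP cells, with overlap, and rose by 0.13 ± 0.0445 (SE; limma, adjusted p = 0.0137). H2BC18, H4C12, H2BC13, H3C7, H3C8, H3C11 and H2BC17 were not called.

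An interaction term tested whether the DTP state altered a gene unequally in the 2 lines, as the change in the chemoresistant line minus that in the parental line. For 18 of the 27 tested members the change was lower in the chemoresistant line and for 0 it was higher (limma), where 43.4% of all tested genes were lower and 20.5% higher. None was higher at an unadjusted p under 0.05 or with voom weights. The median difference was -0.39, against -0.17 over all tested genes, and the count depended on the scaling. Under relative log expression 11 were lower and 1 higher, where 27.7% of all tested genes were lower and 37.7% higher. Under upper-quartile scaling 7 were lower and 3 higher, where 20% of all tested genes were lower and 51% higher. The widest differences were those of H2AC6 (-1.41 ± 0.101), H2AC11 (-1.20 ± 0.063), H2BC21 (-1.06 ± 0.0821) and H2BC5 (-0.98 ± 0.112, all SE), with adjusted p-values in limma from 6.85e-14 to 5.14e-08. These 4 were called under both other scalings. The difference of H2BC12 was -0.32 ± 0.0954 (SE; limma, adjusted p = 0.00504), but -0.01 under relative log expression and 0.21 under upper-quartile scaling, neither called.

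Members known to give polyadenylated mRNA as well, in other cells, were H1-2, H2AC6, H2BC4, H2BC5, H2BC8, H2BC12, H2BC21, H2AC18 and H2AC19, of which the first 7 were tested. All 7 rose between chemoresistant and parental cells (median 1.52), between parental DTP and parental cells (median 0.75) and between chemoresistant DTP and parental DTP cells (median 0.83), where 48.2%, 45.8% and 29.5% of all tested genes rose in these comparisons. Between parental DTP and parental cells 6 of the 7 rose under relative log expression and 4 under upper-quartile scaling. All 7 rose under both other scalings in the other pair of comparisons. Between chemoresistant DTP and chemoresistant cells 1 rose and 2 fell (14.3% and 28.6%), where 20.5% of all tested genes rose and 27.4% fell. The 9 members made up 72.0 ± 1.09% of the summed member FPKM in chemoresistant DTP, 70.6 ± 0.607% in chemoresistant, 61.3 ± 1.54% in parental DTP and 58.4 ± 2.05% in parental cells (SD, n = 6 each). The other 54 members summed to 63 ± 4.64 FPKM in chemoresistant DTP, 66.7 ± 2.11 in chemoresistant, 48.2 ± 2.17 in parental DTP and 34.2 ± 3.07 in parental cells, so they too stood in the same order. H2AC18 had medians of 0.725, 0.759, 0.616 and 0.424 FPKM and H2AC19 of 0.705, 0.913, 0.771 and 0.312 FPKM in chemoresistant DTP, chemoresistant, parental DTP and parental cells.

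A list named nuclear-retained RNA was set beside the histones as a rough guide to how much nuclear RNA a library holds, which was not measured. It held MALAT1, NEAT1, KCNQ1OT1, MIAT, MEG3, TUG1, PVT1, SNHG14 and OIP5-AS1, and where each lies in these cells was not measured either. The listed RNAs did not all change alike, so their sum also reflects changes of single genes. The 9 listed RNAs summed to 94.2 ± 13.4 FPKM in chemoresistant DTP, 92.8 ± 14.1 in chemoresistant, 106 ± 6.63 in parental DTP and 60.5 ± 10.5 in parental cells (SD, n = 6 each). By mean, histone mRNA and this sum were therefore both lowest in parental cells, while parental DTP cells had the highest nuclear sum and a lower histone sum than either chemoresistant group. Single libraries of the nuclear sum ran from 68.2 to 105 FPKM in chemoresistant DTP and from 72.8 to 111 in chemoresistant cells. They ran from 96.7 to 114 in parental DTP and from 50.5 to 74.5 in parental cells. Both of these overlapped both chemoresistant groups, unlike in the histone sum. NEAT1, the scaffold of paraspeckles, had medians of 30.6 FPKM in chemoresistant DTP, 24.2 in chemoresistant, 22.1 in parental DTP and 6.62 in parental cells, and MALAT1 of 22.0, 17.3, 33.5 and 22.2 FPKM. NEAT1 rose by 1.68 ± 0.0883 between chemoresistant and parental cells (SE; limma, adjusted p = 1.15e-14), where MALAT1 changed by -0.52 ± 0.143 (adjusted p = 0.00207). All 5 tested RNAs of the list rose between parental DTP and parental cells, 4 of them also under both other scalings, and 3 rose and 2 fell between chemoresistant and parental cells. Over all tested genes 45.8% rose and 19.7% fell in the former comparison, and 48.2% rose and 29.4% fell in the latter.

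Within groups the 2 sums ran in different directions. Pearson's r of log2 summed member FPKM with log2 summed nuclear-retained FPKM was -0.94 in chemoresistant DTP, -0.84 in chemoresistant, 0.27 in parental DTP and 0.41 in parental cells, over 6 libraries each. Spearman's rho was -0.77, -0.89, 0.09 and 0.60 in the same groups. Without the 2 libraries farthest from the median of the nuclear sum, r was -0.70, -0.34, 0.93 and 0.05 over 4 libraries each, so these values rest on few libraries. Both sums come from the same library and share its total and base composition, and the libraries form separate clusters (both chemoresistant groups together, parental DTP and parental), so no pooled value is given. Chemoresistant DTP replicate 2 had the highest histone sum (260.2 FPKM) and the lowest nuclear sum (68.2 FPKM) of its group.

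With the nuclear sum as a covariate in the fit, 23 tested members rose and 0 fell between chemoresistant and parental cells (limma), where 40.4% of all tested genes rose and 33.9% fell. Between parental DTP and parental cells 13 rose and 0 fell, where 28.9% of all tested genes rose and 25.8% fell. Between chemoresistant DTP and parental DTP cells 21 rose and 0 fell, where 34.7% of all tested genes rose and 32.1% fell. In that fit H1-2 changed by 0.25 between parental DTP and parental cells (adjusted p = 0.345) and its difference of DTP changes was 0.01, against -0.57 without the covariate. H2BC4 changed by 0.23 between parental DTP and parental cells (limma, adjusted p = 0.0949). The covariate differs between groups itself, so it cannot be told apart from the group difference it shares.

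**Figure D4:**
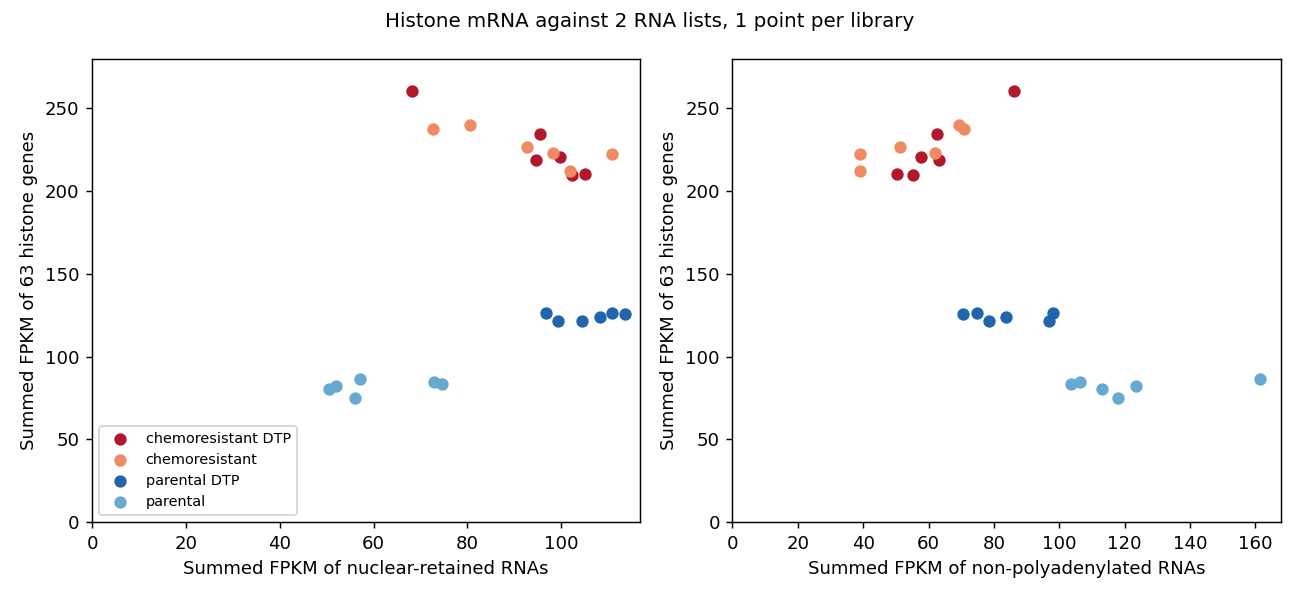
Summed FPKM of the 63 histone genes (y axis) against summed FPKM of 9 nuclear-retained RNAs (left) and of 21 non-polyadenylated RNAs (right), 1 point per library, 6 per group. Both chemoresistant groups overlap and lie apart from parental DTP and from parental cells in the histone sum. Parental DTP cells have the highest mean of nuclear-retained RNA (106 FPKM, with overlap) at a mean histone sum of 124 FPKM.

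The sum of the listed RNAs that carry no poly(A) tail did not follow the histones across groups. The 21 listed RNAs summed to 62.6 ± 12.6 FPKM in chemoresistant DTP, 55.3 ± 14.4 in chemoresistant, 83.7 ± 11.5 in parental DTP and 121 ± 21.2 in parental cells (SD, n = 6 each), highest where histone mRNA was lowest. RN7SL1, the RNA of the signal recognition particle, had means of 41.9 FPKM in chemoresistant DTP, 41.0 in chemoresistant, 32.5 in parental DTP and 46.2 in parental cells. The small nucleolar RNA SNORD17 had means of 10.0 FPKM in chemoresistant DTP, 5.75 in chemoresistant, 40.9 in parental DTP and 61.3 in parental cells. Much of the difference of the sum between groups therefore lay in SNORD17, and the order of the sum is not that of every listed RNA. RN7SK and RMRP were listed at 0 in all libraries, as were 6 others of the list. Of the 7 tested, 0 rose and 4 fell between chemoresistant and parental cells, and 0 rose and 3 fell between parental DTP and parental cells. Over all tested genes 48.2% rose and 29.4% fell in the former comparison, and 45.8% rose and 19.7% fell in the latter. Within groups r of the histone sum with this sum was 0.95 in chemoresistant DTP, 0.84 in chemoresistant, -0.28 in parental DTP and 0.27 in parental cells (6 libraries each), of the opposite sign to that with nuclear RNA in the first 3 of these. Without the 2 libraries farthest from the median of this sum, r was 0.72, 0.72, -0.60 and -0.42 in the same groups over 4 libraries each, so the sign in parental cells rests on those libraries. How far carry-over of RNA without a poly(A) tail contributes to the histone levels was not tested.

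S-phase genes went the other way from the histones. Of 34 genes of DNA replication 2 rose and 31 fell between chemoresistant and parental cells (limma), with a median log2 fold change of -0.57, beside the 23 histone genes that rose. Between parental DTP and parental cells 2 rose and 27 fell (median -0.42), and between chemoresistant DTP and chemoresistant cells 12 rose and 9 fell (median 0.05). Over all tested genes 48.2% rose and 29.4% fell in the first of these comparisons. In the second 45.8% rose and 19.7% fell, and in the third 20.5% rose and 27.4% fell. Under both other scalings 32 or more of the 34 fell in each of the first 2 comparisons. UHRF1, which guides maintenance methylation to replicated DNA, had medians of 15.7 FPKM in chemoresistant DTP, 12.6 in chemoresistant, 13.4 in parental DTP and 40.9 in parental cells and changed by -1.57 ± 0.0714 between chemoresistant and parental cells (SE; limma, adjusted p = 6.83e-16). MCM4, a subunit of the replicative helicase, changed by -1.33, RRM2, which makes deoxynucleotides, by -1.29, and PCNA, the sliding clamp, by -1.13 in that comparison. In bulk RNA fewer cells in S phase and less of these mRNAs per cell cannot be told apart.

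Genes that make, process and remove histone mRNA are given next. SLBP, which binds the stem-loop, had medians of 31.6 FPKM in chemoresistant DTP, 35.8 in chemoresistant, 40.1 in parental DTP and 64.1 in parental cells. SLBP fell by 0.81 ± 0.0479 on the log2 scale between chemoresistant and parental cells (SE; limma, adjusted p = 1.2e-13) and by 0.65 ± 0.0479 between parental DTP and parental cells (SE; limma, adjusted p = 2.46e-11), while histone mRNA rose. NPAT, the coactivator of the histone locus body, had medians of 2.92, 2.64, 2.93 and 2.48 FPKM in chemoresistant DTP, chemoresistant, parental DTP and parental cells and a log2 fold change of 0.03 ± 0.0906 between chemoresistant and parental cells (SE; limma, adjusted p = 0.741), which became -0.17 and -0.32, both called, under the other scalings. Of the 16 genes of the locus body and 3′ end processing 3 rose and 10 fell in that comparison, with LSM11, a subunit of the U7 particle that cuts histone pre-mRNA, among those that rose (0.42, not called under upper-quartile scaling). Over all tested genes 48.2% rose and 29.4% fell there. Between parental DTP and parental cells 0 rose and 5 fell (limma), where 45.8% of all tested genes rose and 19.7% fell. In that comparison 0 rose and 13 fell under relative log expression, and 0 rose and 15 fell under upper-quartile scaling.

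HINFP, a transcription factor of H4 genes, had medians of 1.56 FPKM in chemoresistant DTP, 1.69 in chemoresistant, 4.15 in parental DTP and 3.91 in parental cells. It fell by 0.87 ± 0.0379 between chemoresistant and parental cells (SE; limma, adjusted p = 2.71e-16), where the 3 tested H4 members rose by 0.41 to 1.15. Of the 10 transcription factors and CDK2 partners 1 rose and 7 fell in that comparison, POU2F1 being the one that rose (0.23, not called under either other scaling and negative under upper-quartile scaling). CCNE2, a cyclin that activates CDK2 at the start of S phase, fell by 0.68, and CCNA2 by 1.16. Of the 11 genes of histone mRNA decay 4 rose and 5 fell in that comparison. Beside both lists, 48.2% of all tested genes rose and 29.4% fell. ERI1, the exonuclease that trims the stem-loop end, fell by 0.49 and XRN1, a cytoplasmic exonuclease, rose by 0.62.

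Histone chaperones and replication-independent histones moved in both directions between chemoresistant and parental cells. Of 18 tested chaperones 3 rose and 11 fell (limma), where 48.2% of all tested genes rose and 29.4% fell. ASF1B and CHAF1B, which hand H3 and H4 to replicating DNA, fell by 0.48 and 0.75, whereas ASF1A and SSRP1 rose by 0.81 and 0.83. Of 12 tested replication-independent histone genes 8 rose and 3 fell, a split that became 4 and 3 under relative log expression and 3 and 6 under upper-quartile scaling. H2AX, the variant marked at DNA breaks, whose gene gives both a stem-loop and a polyadenylated mRNA, had medians of 38.3, 36.6, 112 and 205 FPKM in chemoresistant DTP, chemoresistant, parental DTP and parental cells and fell by 2.43 ± 0.0566 (SE; limma, adjusted p = 1.48e-21). H2AZ1 and H3-3B had log2 fold changes of 0.15 and 0.24 in that comparison, and both turned negative under relative log expression and upper-quartile scaling.

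**Figure D5:**
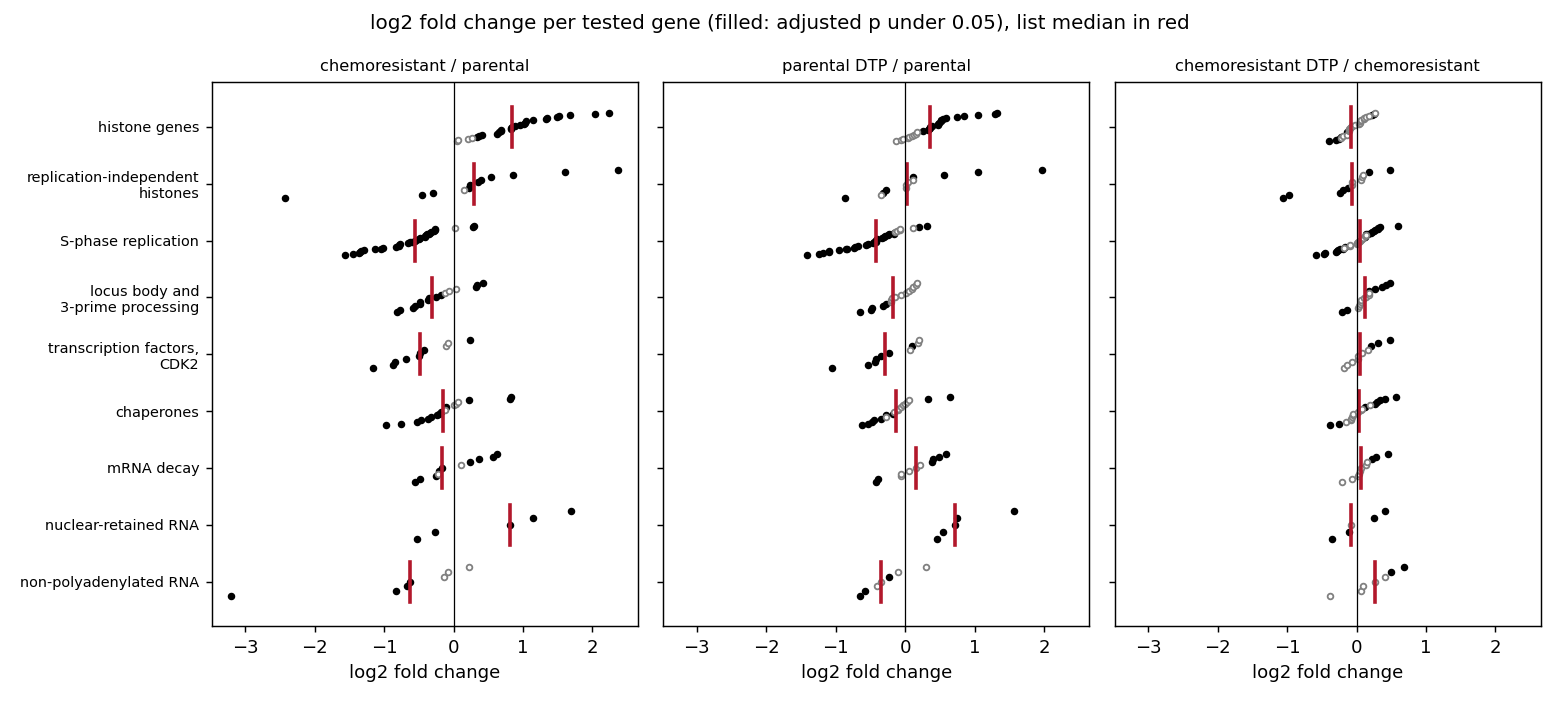
Log2 fold change (x axis) of each tested gene of 9 lists in 3 comparisons; filled points passed an adjusted p under 0.05 in limma and the red bar is the median of the list. Between chemoresistant and parental cells the histone genes have a median of 0.84 and the S-phase genes a median of -0.57.

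The tested genes outside the list whose pattern was most like the summed histone level over all 24 libraries were CLDN7, GRB7, SLC22A18, BSPRY and TNF, with Pearson's r from 0.991 to 0.994. CLDN7 had medians of 54.5 FPKM in chemoresistant DTP, 50.8 in chemoresistant, 12.5 in parental DTP and 5.72 in parental cells. The likeness rests on 3 levels of the histone sum that lie apart, with both chemoresistant groups at 1 level, and describes these libraries alone.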

How the data were processed

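RNA was sequenced from 24 libraries of KYSE450 cells, 6 in each of 4 groups, with groups taken from the labels. The deposited table holds FPKM values per gene, and the submitters' processing notes name the build GRCh38. Nothing used here states the aligner, counting tool, strandedness or library selection. Whole reads were recovered from the FPKM steps, with 41101 genes whole within 0.02 reads. Totals of 14947379 to 37989445 reads limit the precision: 3 reads, the limit a count of 0 allows, equal 0.079 to 0.201 CPM (counting error only).

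From the deposited FPKM values, limma 3.58.1 (R 4.3.3) with a mean-variance trend was fitted to log2(FPKM + 1) over all 24 libraries, with 4 group means and no covariate. The 13729 genes that averaged 1 FPKM or more in some group were tested, two-sided, with Benjamini-Hochberg adjustment and a threshold of 0.05, in 5 comparisons. The planned edgeR fit was not run, because the values are FPKM and not counts. In its place limma with voom weights was run on the recovered reads, an alternative chosen after seeing the data. The fit was tested on simulated data.

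The members, gene lists and tests were chosen with earlier results of these data known. Named members were the 6 with the highest mean FPKM, up to 4 tested members with the largest called change and up to 3 in the other direction per comparison, the H1 genes and the members known to give polyadenylated mRNA. H4C8, H2BC9, H2BC18 and the members that were not called, or that alone did not overlap, were named after their values were seen. So were UHRF1, MCM4, RRM2, PCNA, HINFP, POU2F1, LSM11, CCNE2, CCNA2, ERI1, XRN1, ASF1A, SSRP1 and SNORD17 among the listed genes. Alternatives were another pseudocount, 2 other filters, 2 other scalings, fits on the 12 libraries compared, a replicate block, left-out libraries and nuclear-retained RNA as a covariate. A gene that the naming rule covers is not reported here.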

Additional observations from a re-analysis of the deposited data

Results flagged for a closer look

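Among 56 groups of 6 libraries checked for a single library far from the others, 2 were found, and chance gives about 1 in 20. H2AC11 was highest in parental DTP replicate 5, at 4.87 FPKM, where the other 5 libraries of that group ran from 4.11 to 4.34 FPKM. Summed nuclear-retained RNA was lowest in chemoresistant DTP replicate 2, at 68.2 FPKM, where the other 5 ran from 94.7 to 105 FPKM.

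The change between DTP cells and their own line differed between the chemoresistant and the parental line for all 11 histone genes followed in every alternative, by limma's test of the difference itself. H2AC6, H2AC11, H2BC21 and H2BC5 were followed partly for the size of this very difference. H1-2, H2BC8, H2BC17, H3C10 and H4C9 were followed partly for their DTP change in a single line, which enters the difference. The calls of these genes were therefore partly set by that choice. Of all 27 tested members 18 were lower and 0 higher, where 43.4% of all tested genes were called lower and 20.5% higher. On the log2 scale the change in the chemoresistant line minus that in the parental line was -1.41 for H2AC6, -1.20 for H2AC11, -1.06 for H2BC21 and -0.98 for H2BC5. It was -0.79 for H3C10, -0.77 for H2BC17, -0.75 for H2BC8 and -0.57 for H1-2. It was -0.44 for H2BC4, -0.37 for H4C9 and -0.32 for H2BC12. The median over all tested genes was -0.17, and the differences of H1-2, H4C9 and H2BC12 were not called under either other scaling.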

How the results depend on the processing

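Counts of called members moved as follows. With relative log expression 1 member fell between parental DTP and parental cells, 4 rose and 1 fell between chemoresistant DTP and chemoresistant cells, and the difference of DTP changes was higher for 1 and lower for 11. With upper-quartile scaling 4 fell between parental DTP and parental cells, 5 rose and 1 fell between chemoresistant DTP and chemoresistant cells, and 2 fell between chemoresistant and parental cells. Under that scaling 1 fell between chemoresistant DTP and parental DTP cells, where 29% of all tested genes fell, and the difference was higher for 3 and lower for 7. The shares of all tested genes for the other counts under these scalings stand with each comparison above. Between chemoresistant DTP and parental DTP cells 4 of 63 fell without a filter, where 14.5% of all genes above 0 fell. Without parental DTP libraries 5 and 6, 1 of 28 fell (H2BC14, which then passed the filter), where 32.2% of all tested genes fell. These 2 libraries were left out together because an earlier analysis of these data had set them apart. Leaving out 1 library gave 0 to 1 fallen members between parental DTP and parental cells. The 1 came without parental replicate 1, where 18.9% of all tested genes fell. Between chemoresistant DTP and chemoresistant cells 3 to 6 fell, with 3 without chemoresistant DTP replicate 5, where 26.7% of all tested genes fell. Between chemoresistant DTP and parental DTP cells 0 to 1 fell, with 1 without parental DTP replicate 5, where 31.5% of all tested genes fell.

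Upper-quartile scaling turned H2BC12 between parental DTP and parental cells (-0.044), H2BC12 in the difference (0.21), and H2AC6 (0.010) and H2BC4 (0.0042) between chemoresistant DTP and chemoresistant cells. H2BC12 in that last comparison ran from -0.027 without chemoresistant DTP replicate 2 to 0.067 without chemoresistant replicate 3, and was just below 0 without chemoresistant replicate 4. H1-2 in the difference was 0.0065 with nuclear-retained RNA as a covariate. The cause was not tested. Of the other values of single members under an alternative, 1809 kept direction and side of the threshold, 33 lost the call and 10 gained it. The replicate numbers did not pair the libraries: 12 of 36 same-number pairs correlated above 0.1 and 3 of 24 libraries correlated best with their own number. With the replicate block 18 members rose between parental DTP and parental cells, where 45.7% of all tested genes rose. Between chemoresistant DTP and chemoresistant cells 2 rose and 6 fell, where 20.8% of all tested genes rose and 27.4% fell. Between chemoresistant and parental cells 23 rose, where 48.3% of all tested genes rose. Between chemoresistant DTP and parental DTP cells 20 rose, where 29.6% of all tested genes rose. The difference was lower for 19, where 43.7% of all tested genes were lower. At this depth members under 1 FPKM rest on few reads.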
